A study of Homo sapiens with 4 samples.

Results

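The comparison described here sets the marker-negative fraction of one cell sort against the marker-negative fraction of another. Huh7 is an established human hepatocellular carcinoma line. Flow cytometry gave CD133-negative cells in one sort and cells negative for aldehyde dehydrogenase (ALDH-negative) in the other, and the labels name no treatment. Each fraction is represented by 1 array, so the comparison rests on 2 of the 4 arrays of the series, the other 2 holding the CD133-positive and the ALDH-positive fractions, and covers the 18377 genes that have a probe naming them alone. The status of the CD133-negative cells for ALDH, and of the ALDH-negative cells for CD133, is not given in the sources used here, nor is whether the fractions came from 1 culture or from several.

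Each value below is a log2 expression value, and each difference is the value in CD133-negative cells minus that in ALDH-negative cells, so that a positive difference means a higher level in CD133-negative cells. With 1 array a side there is no spread between replicates, no test and no p-value. The difference between the fractions and any difference between the 2 sorts as experiments cannot be told apart. Because the RNA is from bulk fractions, fewer cells of a kind and less RNA per cell cannot be told apart either. The CD133-positive minus ALDH-positive difference, which shares no array with this comparison, is given beside the main results.

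CD133 is the surface glycoprotein prominin-1, encoded by PROM1, which sits on membrane protrusions and is widely used to isolate cancer stem cells. ALDH activity, the oxidation of aldehydes to acids, is used in the same way. In such schemes the marker-negative cells are the bulk tumour cells that serve as the control. Huh7 cells keep much of the programme of the fetal hepatocyte, and liver cancer lines can also express genes of the intestinal epithelium, which shares its endodermal origin and several transcription factors with the liver.

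Genes of the intestinal surface were lower in CD133-negative than in ALDH-negative cells, and genes of DNA replication were higher; these lists had the lowest and the highest median of all lists examined. A level of 4.98, the median over all probes and arrays, is used as a floor. Of 11619 genes that reached it in the brighter of these arrays, 141 (1.21%) were at least 2-fold higher in CD133-negative cells and 216 (1.86%) at least 2-fold lower, 3.07% in all. The single highest gene was the zinc finger gene ZNF724, at 7.06 in CD133-negative and 4.88 in ALDH-negative cells, at least 4.22-fold higher. The lower side reached further. At 4-fold there were 33 lower genes and 1 higher gene, and at 8-fold 4 lower genes and 0 higher ones. These counts use the measured values. Counted by the bound, 123 genes were higher and 159 lower at 2-fold, 1 and 21 at 4-fold, and 0 and 2 at 8-fold. The middle 95% of the 11619 genes lay between -0.90 and 0.85, with a median of 0.07. Both arrays lay at or above the floor for 115 of the 141 higher genes and for 134 of the 216 lower genes. For the other genes the dimmer value is uncertain, and a fold is given as at least the brighter value over the floor. Levels of different genes come from different probes and are not comparable with each other.

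**Figure D1:**
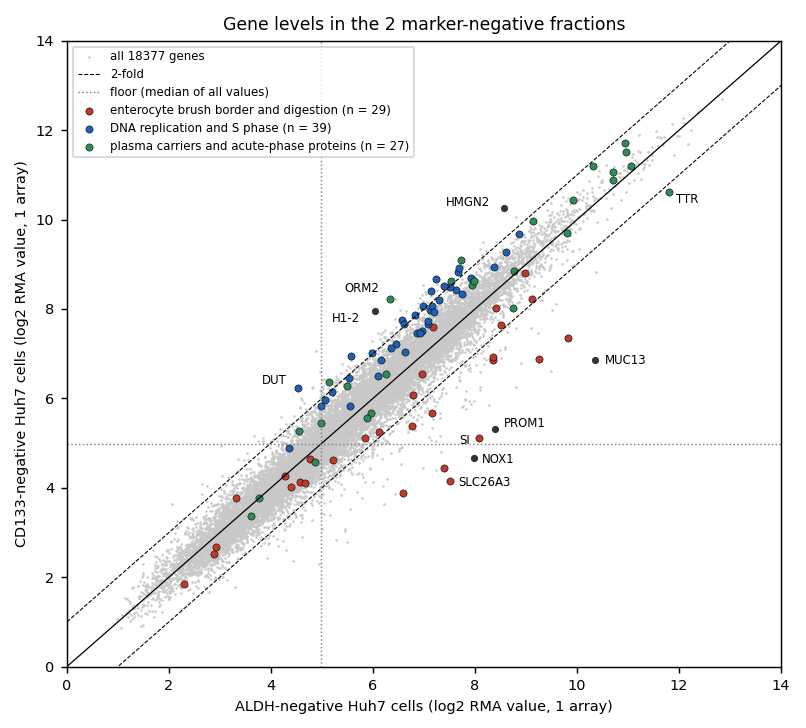
Log2 value of each of 18377 genes in ALDH-negative (horizontal) and CD133-negative (vertical) Huh7 cells, 1 array each, with genes of 3 lists in colour, other named genes in black, dashed lines at 2-fold and dotted lines at the floor of 4.98. The replication genes lie above the diagonal, and most brush border genes below it. The mucin gene MUC13, drawn in black, lies farthest from the diagonal of all genes.

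PROM1, the gene of the CD133 protein, was at 5.32 in CD133-negative and 8.39 in ALDH-negative cells, an 8.39-fold lower level in the first. It was at 8.9997 in CD133-positive and 7.11 in ALDH-positive cells. The ALDH-negative fraction thus lay far above the CD133-negative one and nearer to the CD133-positive one in this transcript. The aldehyde dehydrogenase genes, whose enzymes give the other sort its name, showed no such gap. Of 19 measured, 13 were higher and 6 lower in CD133-negative cells, with a median of 0.18, and of the 15 above the floor 0 reached 2-fold in either direction. ALDH1A1, the cytosolic retinal dehydrogenase most often linked to the flow cytometry assay, was at 11.47 in CD133-negative and 11.10 in ALDH-negative cells. The mitochondrial acetaldehyde dehydrogenase ALDH2 was at 9.44 and 9.34. Among these 15 the widest gaps were those of ALDH1L2, a mitochondrial folate enzyme (-0.84, with a CD133-negative value below the floor), ALDH7A1, an enzyme of lysine breakdown (0.76), and ALDH4A1, an enzyme of proline breakdown (0.69).

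Genes of the enterocyte brush border and of digestion were lower in CD133-negative cells almost throughout. Of 29 measured members, 27 had the lower value there and 2 the higher one, at a median of -0.69 against 0.01 over all 18377 genes, of which 48.4% were lower. Of the 20 members above the floor, 10 were lower by 2-fold or more and 0 higher by as much. The sucrase-isomaltase SI, which cleaves sucrose and starch fragments, was at 5.11 in CD133-negative and 8.08 in ALDH-negative cells, a 7.85-fold gap. The chloride and bicarbonate exchanger SLC26A3 was at 4.15 and 7.50, at least 5.72-fold lower. The lactase LCT was at 4.44 and 7.39, at least 5.29-fold lower.

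The other brush border genes at 2-fold cover adhesion, peptide digestion and uptake. The liver-intestine cadherin CDH17 was at 7.35 in CD133-negative and 9.82 in ALDH-negative cells (5.53-fold), and the peptidase DPP4 at 6.88 and 9.25 (5.17-fold). The vitamin B12 receptor CUBN was at 3.89 and 6.58, at least 3.02-fold lower. Also beyond 2-fold, and named after their values were seen, were the metalloprotease MEP1A (-1.50), the brush border myosin MYO1A (-1.49), the guanylin receptor GUCY2C (-1.43) and the peptide transporter SLC15A1 (-1.36). The actin bundler villin, VIL1, was close in both fractions at 8.79 and 8.98. The 2 members that went the other way were the glucose transporters SLC2A2 (0.41) and SLC5A1 (0.45), the latter below the floor on both arrays.

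Mucins and secreted intestinal proteins were lower in CD133-negative cells as well. Of 28 measured, 22 had the lower value there and 6 the higher one, at a median of -0.37; of the 13 above the floor, 8 were lower by 2-fold or more and 1 higher by as much. The transmembrane mucin MUC13 had the widest gap of all genes, at 6.85 in CD133-negative and 10.36 in ALDH-negative cells, 11.3-fold lower. The trefoil peptide TFF1 was at 6.19 and 8.10 (3.75-fold), and the trypsin inhibitor SPINK1 at 8.10 and 9.59 (2.80-fold). The disulfide isomerase AGR2, which folds mucins, was at 3.85 and 6.42, at least 2.71-fold lower. MUC12, another membrane mucin, was at 4.53 and 6.54 from its brightest probe, at least 2.95-fold lower, but the narrowest of its 3 probes gave -0.61. The 1 member at 2-fold in the other direction was lysozyme, LYZ, at 8.22 and 6.44 (3.44-fold higher in CD133-negative cells). LYZ is made by Paneth cells and by leukocytes.

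Further genes known from absorptive and glandular epithelia were among the 20 lowest with both arrays above the floor. The ion transport regulator FXYD3 was at 6.26 in CD133-negative and 8.81 in ALDH-negative cells (5.85-fold), the intestinal annexin ANXA13 at 5.86 and 8.27 (5.35-fold) and the zinc importer SLC39A4 at 5.84 and 7.77 (3.80-fold). The bile acid exporter subunit SLC51A was at 5.77 and 7.83 (4.17-fold); its values in the positive fractions, 5.79 with CD133 and 5.99 with ALDH, were near the lower of these, so the ALDH-negative array stood alone for this gene. The annexin ANXA1 (-2.19), the ceramide galactosyltransferase UGT8 (-2.16), the monoglyceride lipase MGLL (-1.94), PARM1 (-2.07) and PRR15L (-2.04) were also in this set. So were the trypsin gene PRSS3 (-1.95) and its pseudogene PRSS3P2 (-2.07), near copies that can share signal. COL2A1, the collagen of cartilage, was at 6.61 and 9.50 (7.39-fold). Among genes whose CD133-negative value lay below the floor, the superoxide-producing oxidase NOX1 was at 4.67 and 7.98, at least 7.99-fold lower. The matrix collagen COL14A1 was at least 5.10-fold lower, the amino acid transporter subunit SLC7A7 4.72-fold, the adhesion receptor ADGRG7 4.01-fold and the glycosyltransferase B3GNT5 2.95-fold, each as a lower bound. VCAN, the gene of the matrix proteoglycan versican, was at 4.92 and 6.57.

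Junction and matrix genes with a gap at 2-fold were mostly lower in CD133-negative cells. Of 25 claudins and tight junction genes, listed after the values were seen, 18 were lower, with a median of -0.16. CLDN7 was at 5.67 in CD133-negative and 7.31 in ALDH-negative cells (3.14-fold) and CLDN4 at 4.83 and 6.52 (at least 2.89-fold), while CLDN1 was at 10.36 and 10.17. The protease inhibitor SPINT1, which restrains matriptase on epithelia, was at 5.55 and 7.32 (3.41-fold). Of 27 collagens and matrix proteins 19 were lower, with a median of -0.13. Besides COL2A1 and COL14A1, the collagen COL12A1 (-1.56, a bound of at least 1.77-fold) and the fibrillin FBN1 (-1.09, at least 1.71-fold) were lower, both with a CD133-negative value below the floor, and the secreted guidance protein RELN was at 7.77 and 6.42 (2.53-fold higher).

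Transcription factors of the liver and gut lay on both sides. Of 23 measured liver and gut factors, 10 were higher and 13 lower, with a median of -0.09, and 2 of 22 above the floor were lower by 2-fold or more. These were KLF4, a factor of differentiated epithelium, at 5.14 in CD133-negative and 7.10 in ALDH-negative cells (3.87-fold), and the nuclear receptor HNF4G at 6.47 and 7.68 (2.31-fold). The intestinal homeobox factor CDX2 was at 7.63 and 8.58, a difference of -0.95 just short of 2-fold, and the crypt factor KLF5 at 7.56 and 8.37. The intestinal factor CDX1 (-0.075), SOX9 (0.0094) and GATA4 (0.0031) were near equality. The hepatic factors ONECUT2 (-0.86), FOXA2 (-0.55) and NR0B2 (-0.49) were lower in CD133-negative cells. The hepatic factors ONECUT1 (0.50) and CEBPA (0.33) were higher in CD133-negative cells, neither at 2-fold.

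The upstream sequences of 3 of the intestinal genes are shown because they hold motifs of hepatic and intestinal factors within the 250 bases before the start site. They are from RefSeq (GRCh38.p14), matched by symbol, each printed 5′ to 3′ on the strand of its gene: SLC26A3 at chr7:107803224-107803473 (minus strand), SI at chr3:165078497-165078746 (minus strand) and MUC13 at chr3:124934752-124935001 (minus strand). Capitals mark the HNF1 half-site GTTAAT in all 3, the HNF4 motifs CAAAGTCCA and CAAAGGTCA in SLC26A3 and MUC13, and the CDX motif TTTATNG in SI, on either strand.
SLC26A3: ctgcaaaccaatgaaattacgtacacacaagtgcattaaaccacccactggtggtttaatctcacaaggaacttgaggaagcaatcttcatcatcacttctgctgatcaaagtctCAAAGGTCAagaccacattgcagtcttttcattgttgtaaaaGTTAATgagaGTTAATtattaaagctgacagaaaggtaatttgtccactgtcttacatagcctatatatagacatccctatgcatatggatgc
SI: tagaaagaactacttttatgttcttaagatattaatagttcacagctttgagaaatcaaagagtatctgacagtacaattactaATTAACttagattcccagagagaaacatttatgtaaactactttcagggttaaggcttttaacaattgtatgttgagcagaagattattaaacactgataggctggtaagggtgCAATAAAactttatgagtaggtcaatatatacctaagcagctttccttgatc
MUC13: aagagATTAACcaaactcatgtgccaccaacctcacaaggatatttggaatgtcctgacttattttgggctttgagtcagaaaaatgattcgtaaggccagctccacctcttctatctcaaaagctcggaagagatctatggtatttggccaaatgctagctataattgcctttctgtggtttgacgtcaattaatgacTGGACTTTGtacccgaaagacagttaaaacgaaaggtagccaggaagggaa

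SLC26A3 holds 2 half-sites of HNF1 beside each other and 1 HNF4 motif, SI 1 half-site and 1 CDX motif near its start, and MUC13 1 half-site and 1 HNF4 motif. Of the 22 brush border genes with an upstream sequence in the table, 5 (22.7%) held the HNF1 half-site, against 3.28% of 9339 genes above the floor and 6.22% of all 27305 promoters. The HNF4 motif was in 3 of the 22 (13.6%), against 0.546% and 0.634%, and the CDX motif in 4 (18.2%), against 5.58% and 9.29%. Of the genes at least 2-fold lower, 169 had a sequence. The HNF1 half-site was in 15 (8.88%) of them, the HNF4 motif in 8 (4.73%) and the CDX motif in 17 (10.1%). Of the genes at least 2-fold higher, 113 had a sequence. There the same motifs were in 8 (7.08%), 2 (1.77%) and 3 (2.65%), so the HNF1 half-site was nearly as frequent on the higher side. None of the motifs searched contains another. A match of letters is a description and not a bound site.

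**Figure D2:**
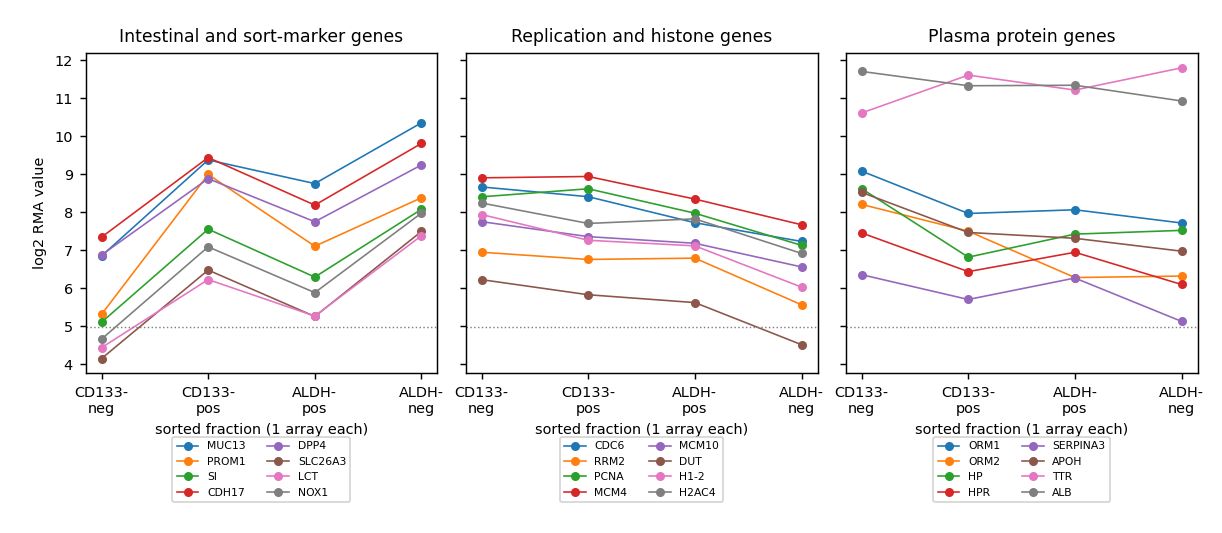
Log2 values of 24 genes in the 4 sorted fractions, 1 array each; a line joins the values of a gene and the dotted line is the floor of 4.98. In the left panel each gene is lowest in CD133-negative cells, and each but PROM1 is highest in ALDH-negative cells; in the middle panel all 8 genes are lowest in ALDH-negative cells.

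Across the 4 arrays the brush border genes placed the negative fractions at opposite ends, and the mucins and secretory proteins did so less. Of the 29 brush border genes, 22 were lowest in CD133-negative cells, where 26.9% of all genes were, and 20 were highest in ALDH-negative cells, where 24.0% of all genes were. The list's median level was 5.12 in CD133-negative, 6.23 in CD133-positive, 5.54 in ALDH-positive cells and, in ALDH-negative cells, 6.78. Over these 29 genes CD133-positive minus ALDH-positive had a median of 0.09, with 19 higher and 10 lower. Of the 28 mucins and secretory proteins, 18 were lowest in CD133-negative and 13 highest in ALDH-negative cells. Their median level was 4.61 in CD133-negative and 4.90 in ALDH-negative cells, both below the 5.06 with CD133 and the 5.03 with ALDH of the positive fractions.

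Genes of DNA replication were higher in CD133-negative cells. All 39 measured members of the replication and S-phase list were higher, with a median of 0.84, where 51.6% of all genes were higher. Of the 38 members above the floor, 12 were higher by 2-fold or more and 0 lower by as much. CDC6, which loads the replicative helicase onto origins, was at 8.67 in CD133-negative and 7.24 in ALDH-negative cells (2.70-fold). RRM2, the ribonucleotide reductase subunit that limits the supply of deoxynucleotides, was at 6.95 and 5.57 (2.61-fold). The sliding clamp PCNA was at 8.41 and 7.14 (2.42-fold).

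The members at 2-fold cover origin loading, the helicase, the clamp loader and nucleotide supply. The helicase subunit MCM4 was at 8.91 in CD133-negative and 7.68 in ALDH-negative cells (2.35-fold) and the initiation factor MCM10 at 7.76 and 6.57 (2.28-fold). The dUTP pyrophosphatase DUT, which keeps uracil out of DNA, was at 6.23 and 4.52, at least 2.37-fold higher. Beyond the genes of the naming rule, MCM3 (1.17), the clamp loader subunits RFC4 (1.11) and RFC3 (1.05), the chromatin assembly factor CHAF1A (1.09), GINS2 (1.07) and CDC45 (1.03) were also at 2-fold. The narrowest difference of the list was that of the transcription factor E2F2 (0.28), and E2F1 stood at 0.55. TFDP1, the DNA-binding partner of the E2F factors, was at 8.31 and 6.97 (2.53-fold).

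For this list the ALDH-negative array stood apart more than the CD133-negative one. ALDH-negative cells held the lowest value of the 4 arrays for 36 of 39 members (28.3% of all genes), and CD133-negative cells the highest for 34 (28.1% of all genes). The list's median level was 7.73 in CD133-negative, 7.45 in CD133-positive, 7.36 in ALDH-positive cells and, in ALDH-negative cells, 6.96. The positive fractions differed in the same direction but less, with a median of 0.24, and 34 of 39 members were higher with CD133.

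Mitotic genes were higher in CD133-negative cells by a smaller margin. Of 33 measured, 29 were higher and 4 lower, with a median of 0.43. Of 32 above the floor, 3 were higher by 2-fold or more and 0 lower by as much. The spindle checkpoint protein MAD2L1 was at 7.38 in CD133-negative and 6.23 in ALDH-negative cells (2.22-fold), the mitotic kinase CDK1 at 6.74 and 5.66 (2.11-fold), and the cyclin CCNB2 at 7.42 and 6.40 (2.02-fold). Over 6 settings CCNB2 ranged from 0.91 to 1.07, so that its place at 2-fold depends on the setting. The kinetochore proteins CENPF (-0.61) and CENPE (-0.46) were lower. The mitotic list thus spread over 0, while the replication list did not. ALDH-negative cells held the lowest of the 4 values for 27 of the 33. Between the positive fractions the list had a median of -0.02, with 13 members higher and 20 lower. The centromere proteins CENPW (1.42) and CENPN (1.31), outside this list, were among the 20 highest genes.

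Upstream sequences of 4 of these genes are shown for the motifs that mark the promoters of cell cycle genes, again from RefSeq (GRCh38.p14): PCNA at chr20:5126623-5126872 (minus strand), MCM3 at chr6:52284743-52284992 (minus strand), CDC6 at chr17:40287629-40287878 (plus strand) and CCNB2 at chr15:59104896-59105145 (plus strand). Capitals mark the CCAAT box in all 4, the E2F motifs TTTCCCGC, TTTGGCGC, TTTCGCGC and TTTGCCGC in PCNA and MCM3, and the cell cycle homology region (TTTGAA or TTCGAA) in CCNB2, on either strand.
PCNA: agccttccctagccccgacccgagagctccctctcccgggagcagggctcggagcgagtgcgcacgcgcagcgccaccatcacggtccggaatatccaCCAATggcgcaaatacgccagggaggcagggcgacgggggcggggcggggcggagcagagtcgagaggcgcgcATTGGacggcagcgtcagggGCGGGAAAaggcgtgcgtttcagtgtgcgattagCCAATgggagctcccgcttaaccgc
MCM3: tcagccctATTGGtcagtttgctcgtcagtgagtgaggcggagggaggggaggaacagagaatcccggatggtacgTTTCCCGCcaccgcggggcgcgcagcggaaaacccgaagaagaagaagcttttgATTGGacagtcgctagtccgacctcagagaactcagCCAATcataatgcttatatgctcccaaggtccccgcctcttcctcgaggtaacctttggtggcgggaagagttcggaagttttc
CDC6: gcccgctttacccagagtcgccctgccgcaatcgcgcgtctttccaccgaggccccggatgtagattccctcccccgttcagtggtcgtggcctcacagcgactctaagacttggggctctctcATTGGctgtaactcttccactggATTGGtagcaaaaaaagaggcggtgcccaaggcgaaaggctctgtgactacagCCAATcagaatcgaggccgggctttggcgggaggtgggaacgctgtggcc
CCNB2: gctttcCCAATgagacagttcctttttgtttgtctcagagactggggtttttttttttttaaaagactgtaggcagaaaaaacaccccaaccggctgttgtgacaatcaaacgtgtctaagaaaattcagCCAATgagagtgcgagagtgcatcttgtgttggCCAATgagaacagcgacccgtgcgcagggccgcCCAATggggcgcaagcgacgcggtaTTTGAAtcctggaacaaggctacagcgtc

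PCNA and MCM3 each hold 1 E2F motif of these letters and 3 CCAAT boxes, CDC6 holds 3 CCAAT boxes and none of the 4 E2F octamers, and CCNB2 holds 4 CCAAT boxes and 1 homology region. Of the 35 replication genes with a sequence, 14 (40.0%) held an E2F octamer, against 4.52% of 9339 genes above the floor and 2.79% of all promoters. Of the 28 mitotic genes with a sequence, 1 (3.57%) held one, while 23 (82.1%) held a CCAAT box, against 34.6% and 33.0%. The homology region was in 16 of these 28 (57.1%), against 9.43% and 14.6%. These shares are descriptions, and no match says only that the letters are not in this window.

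Histone genes, whose messages accumulate in S phase, were higher in CD133-negative cells too. Of 54 measured replication-dependent histone genes, 45 were higher and 9 lower, with a median of 0.43, and 4 of 43 above the floor reached 2-fold. The linker histone H1-2 was at 7.95 in CD133-negative and 6.04 in ALDH-negative cells (3.76-fold), H2AC4 at 8.25 and 6.92 (2.51-fold), H4C8 at 8.18 and 6.98 (2.30-fold) and H4C13 at 6.12 and 5.02 (2.15-fold). Probes of such similar genes can pick up one another's transcripts, which leaves each single histone value uncertain. ALDH-negative cells were lowest of the 4 arrays for 36 of the 54. The nucleosome-binding protein HMGN2 was at 10.26 and 8.57 (3.23-fold), with 1.09 from the narrowest of its 3 probes.

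Cell cycle inhibitors and genes of quiescence lay on both sides. Of 20 measured, 12 (60.0%) were lower and 8 higher in CD133-negative cells, where 48.4% of all genes were lower. The median was -0.26, and -0.075 over the members above the 75th percentile. CDKN1A, the p21 inhibitor of cyclin-dependent kinases, was at 5.64 in CD133-negative and 6.88 in ALDH-negative cells (2.37-fold lower), and the thioredoxin inhibitor TXNIP at 8.21 and 9.28 (2.11-fold lower). These were the 2 of 19 above the floor at 2-fold. CDKN1A was the only one of 18 p53 targets above the floor to reach 2-fold, and that list's median was 0.06, or -0.024 after loess.

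Genes of RNA and protein production formed a broad group on the higher side, in lists written after the values were seen. Of the 11619 genes above the floor, 57.1% were higher in CD133-negative cells. Of 63 genes of ribosome assembly and the nucleolus, 60 were higher in CD133-negative cells, with a median of 0.50 and 6 at 2-fold. The RNase P subunit RPP40 was at 5.16 in CD133-negative and 3.67 in ALDH-negative cells, at least 1.13-fold higher. The growth regulator LYAR was at 7.49 in CD133-negative and 6.19 in ALDH-negative cells (2.47-fold), the pre-ribosome factor FCF1 at 6.86 and 5.56 (2.46-fold) and NOL11 at 7.28 and 5.98 (2.45-fold). Dyskerin, DKC1, which modifies ribosomal RNA and stabilises telomerase RNA, was at 7.83 and 6.77 (2.08-fold, with differences from 0.94 to 1.12 over the settings). Of 48 splicing genes, 43 were higher, with a median of 0.49 and 5 at 2-fold, led by the Sm core protein SNRPE (1.33; its other probe gave 0.61). Of 38 DNA repair genes, 36 were higher, with a median of 0.50 and 5 at 2-fold. The thymine DNA glycosylase TDG was at 6.42 and 5.05 (2.60-fold), the strand break sensor PARP1 at 9.34 and 8.10 (2.36-fold) and the uracil glycosylase UNG at 8.29 and 7.14 (2.23-fold). When the arrays were quantile normalized again, the medians of ribosome assembly, splicing and repair were 0.39, 0.38 and 0.42. After loess they were 0.37, 0.35 and 0.42.

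Mitochondrial and protein quality genes were higher in the same manner. Of 37 genes of the mitochondrial ribosome and of assembly factors, also listed after the values were seen, 34 were higher, with a median of 0.42 and 6 at 2-fold, among them the complex I assembly factors NDUFAF5, at 6.40 in CD133-negative and 5.17 in ALDH-negative cells (2.34-fold), and NDUFAF6, at 5.96 and 4.60 (at least 1.96-fold). The median of this list was 0.31 when the arrays were quantile normalized again and 0.30 after loess. Of 32 respiratory chain subunits 27 were higher, with a median of 0.23 and 0 of 31 above the floor at 2-fold; this median was 0.124 when the arrays were quantile normalized again and 0.070 after loess. Of 26 heat shock and proteasome genes 23 were higher, with a median of 0.53 (0.35 after loess); the proteasome subunits PSMA3 at 8.54 and 7.35 (2.29-fold) and PSMA2 at 8.30 and 7.28 (2.02-fold, with differences from 0.88 to 1.07 over the settings) were at 2-fold. These groups also stood higher between the positive fractions. Their medians there were 0.32 for ribosome assembly, 0.23 for splicing, 0.20 for repair, 0.37 for the mitochondrial ribosome, 0.20 for the respiratory chain and 0.37 for heat shock and proteasome. Cytosolic ribosomal protein genes had a median of 0.11 that turned to -0.020 when the arrays were quantile normalized again and -0.064 after loess.

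**Figure D3:**
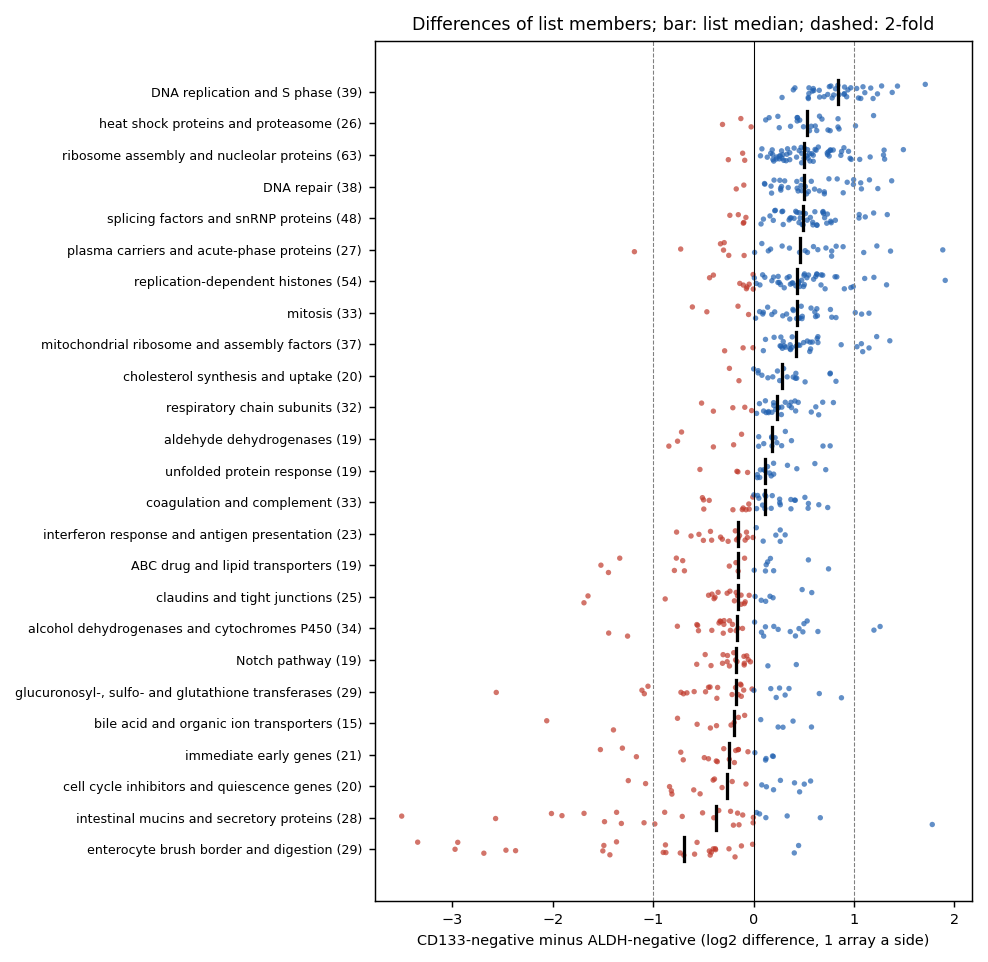
Log2 difference, CD133-negative minus ALDH-negative, of each measured member of 25 gene lists, those with the highest and lowest medians (number of members in brackets), ordered by the list median (black bar), with dashed lines at 2-fold. The red cell markers, the hepatocyte-defining genes and the lists by RNA class are not drawn. All 39 replication genes lie right of 0 and 27 of 29 brush border genes left of it.

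Secreted liver proteins were split, with most but not all acute-phase and carrier proteins on the higher side in CD133-negative cells. Of 27 measured, 20 were higher and 7 lower, with a median of 0.46, and of 24 above the floor 4 were higher by 2-fold or more and 1 lower by as much. The acid glycoproteins ORM1, at 9.09 in CD133-negative and 7.72 in ALDH-negative cells (2.58-fold), and ORM2, at 8.21 and 6.33 (3.69-fold), are near copies that can share signal. The antichymotrypsin SERPINA3 was at 6.36 and 5.13 (2.34-fold) and haptoglobin HP at 8.63 and 7.53 (2.14-fold). Over 6 processing settings the difference of HP ranged from 0.95 to 1.16 and was under 2-fold in 2 of them. The HP-related gene HPR (1.36) can share its signal. Albumin, ALB, was at 11.71 and 10.93 (1.71-fold). The thyroid hormone carrier TTR went against the list at 10.62 and 11.81 (2.28-fold lower). Among the other lower members were CP, at 8.01 and 8.74, and the acute-phase genes SAA1 (-0.30), SAA2 (-0.33) and CRP (-0.25, below the floor on both arrays). The acute-phase genes thus did not move together. CD133-negative cells held the highest of the 4 values for 18 of the 27 genes. Between the positive fractions the same list leaned the other way, with a median of -0.16 and 19 of 27 members lower in CD133-positive cells.

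Other lists of liver functions held few genes at 2-fold. Of 33 coagulation and complement genes, 22 were higher and 11 lower, with a median of 0.11 and 0 of 26 above the floor at 2-fold. Complement factor B, CFB (0.74), and antithrombin, SERPINC1 (0.65), differed most. CD133-negative cells were highest of the 4 arrays for 19 of the 33 (28.1% of all genes). Between the positive fractions this list leaned the other way, with a median of -0.21 and 25 of 33 members lower in CD133-positive cells. Of 15 apolipoprotein and lipoprotein assembly genes, 11 were lower, with a median of -0.15, but APOH, a phospholipid-binding plasma protein, was at 8.53 in CD133-negative and 6.98 in ALDH-negative cells (2.92-fold higher). Of 19 genes of the urea cycle and amino acid breakdown 11 were higher, and the histidine ammonia-lyase HAL (-1.26) was the 1 member of 17 above the floor at 2-fold. Of 20 genes of cholesterol synthesis and uptake 18 were higher, with a median of 0.28 and 0 at 2-fold. That median was 0.167 when the arrays were quantile normalized again and 0.133 after loess. MVK (0.82), SQLE (0.76) and IDI1 (0.76), enzymes of the sterol pathway, differed most. CD133-negative cells were highest of the 4 arrays for 16 of these 20.

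Transport and detoxification genes at 2-fold lay on both sides, more of them lower than higher in CD133-negative cells. The drug efflux pump ABCB1 was at 7.57 in CD133-negative and 9.09 in ALDH-negative cells (2.87-fold lower), ABCC2, which exports conjugates into bile, at 7.14 and 8.58 (2.72-fold), and ABCG2, the pump behind the side population of stem cell assays, at 5.53 and 6.87 (2.52-fold). These were the 3 at 2-fold among 16 ABC transporters above the floor; over 19 measured the median was -0.15, with 11 lower and 8 higher. Over the members above the 75th percentile of all values it was 0.0067. Of 29 conjugating transferases 21 were lower, with a median of -0.18. The glutathione transferase GSTA2, one of a family of near copies, was at 3.64 and 6.21, at least 2.33-fold lower. Of 34 alcohol dehydrogenases and cytochromes P450, CYP4F2 (-1.44) and CYP2S1 (-1.25) were lower and ADH6 (1.20) higher at 2-fold; the list's median of -0.16 turned to 0.056 over its members above the 75th percentile. Of 25 amino acid transporters 14 were lower and 11 higher. Besides SLC7A7, SLC36A1 (-1.38) and SLC1A1 (-1.18) were at least 2-fold lower, SLC7A9 (-1.25) was at least 1.995-fold lower by its bound, and SLC6A14 (1.42) and SLC38A3 (1.06, from 0.91 to 1.12 over the settings) higher.

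Surface markers of liver cancer stem cells differed in both directions. Of 13 measured, 8 were lower and 5 higher in CD133-negative cells, with a median of -0.03, which was 0.032 with the arrays centred and -0.74 over the members above the 75th percentile. Besides PROM1 only ABCG2 was at 2-fold among the 9 above the floor. The adhesion molecule EPCAM was at 8.30 in CD133-negative and 8.89 in ALDH-negative cells (-0.59), while CD24 (0.77) and LGR5 (0.63) were higher. Fetal liver and progenitor genes were higher for 8 of 12, with a median of 0.10. Alpha-fetoprotein, AFP, was at 11.86 and 11.56, and the biliary keratin KRT19 alone was at 2-fold, at 6.85 and 8.22 (2.58-fold lower).

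Signalling lists other than the immediate early genes held few genes at 2-fold. Growth factors and stress induce the immediate early genes within minutes. Of 21 measured, 16 were lower in CD133-negative cells, with a median of -0.24. Of the 20 above the floor, 3 were at least 2-fold lower by the measured values, against 1.86% of all genes above the floor. FOSB was at 5.43 in CD133-negative and 6.95 in ALDH-negative cells (2.88-fold) and FOS at 6.12 and 7.42 (2.47-fold). ATF3 was at 4.55 and 5.72, at least 1.67-fold lower by its bound. Between the positive fractions the immediate early genes differed in the same direction. Their median there was -0.31, with 18 of 21 lower in CD133-positive cells. Of 19 Notch genes 17 were lower, with a median of -0.18 and 0 of 14 above the floor at 2-fold. The Wnt, TGF-beta and interferon lists likewise held 0 members at 2-fold, with medians of -0.13 over 26, 0.08 over 28 and -0.15 over 23 genes. In the NF-kB and cytokine list the interleukin IL18 alone was at 2-fold, at 5.34 and 7.16 (3.51-fold lower). Gluconeogenic PCK1 was at 4.03 and 6.201, at least 2.32-fold lower, and the fatty acid activating enzyme ACSL5 at 6.25 and 8.09 (3.58-fold lower); the lists that hold them, glycolysis, gluconeogenesis and hypoxia and fatty acid synthesis and droplets, each had a median of 0.01, which loess turned to -0.187 and -0.127.

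**Figure D4:**
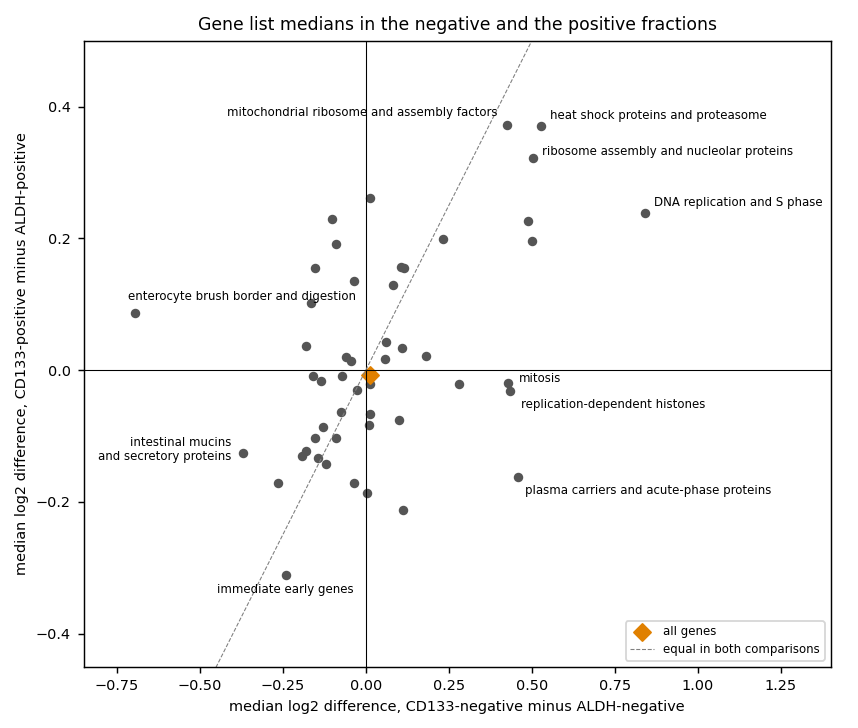
Median log2 difference of gene lists with at least 10 measured members between the negative fractions (horizontal) and between the positive fractions (vertical), with all genes as an orange diamond at 0.01 and -0.01. The hepatocyte-defining, small nucleolar RNA, microRNA and long non-coding RNA lists are not drawn. The replication list is at 0.84 and 0.24, and the brush border list at -0.69 and 0.09.

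Over genes, the differences between the negative fractions and those between the positive fractions were weakly related, with a Pearson r of 0.15 and a Spearman rho of 0.25 over the 11619 genes. These are descriptions across genes of arrays normalized together and carry no p. Between the positive fractions 62 of 11838 genes (0.524%) were higher by 2-fold or more and 15 (0.127%) lower by as much, so fewer genes reached 2-fold there than between the negative fractions. Of the 141 genes higher in CD133-negative cells, 115 (81.6%) were also higher in CD133-positive than in ALDH-positive cells (median 0.31). Of the 216 lower genes only 45 (20.8%) kept their direction, and 171 (79.2%) were higher in CD133-positive cells (median over all 216, 0.38). The genes at 2-fold in the same direction in both comparisons were ORM2 and ZNF724 on the higher side and FOSB, ATF3 and the small nucleolar RNA SNORA80E on the lower side. ORM1, the near copy of ORM2, was higher between the negative fractions (1.36) but not between the positive ones (-0.10). For ATF3, with its dimmer value below the floor in both, the bounds were only 1.67-fold and 1.56-fold. A further 22 of the 216 lower genes were higher by 2-fold or more in CD133-positive than in ALDH-positive cells. As a base, 8962 of all 18377 genes were higher and 9396 lower in the CD133-positive array than in the ALDH-positive one. The 11838 genes above the floor in that pair had a median difference of 0.06. This base was nearly even over all genes, and the share higher among genes above the floor was not counted. The higher side mostly kept its direction in the positive fractions, and the lower side mostly did not.

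Both fractions carried the markers of the labelled line. All 11 measured hepatocyte-defining genes, among them ALB, AFP, TTR and the keratins KRT8 and KRT18, were above the floor on both arrays. Of 17 leukocyte markers 5 were above it on each array, with a summed level of 9.59 (log2 of the linear sum) in CD133-negative and 9.36 in ALDH-negative cells, and PTPRC, the pan-leukocyte marker, was below it at 2.58 and 2.52. The only marker of this list at 2-fold was LYZ (1.78). The summed levels were 8.72 and 8.82 for 14 fibroblast markers, 6 above the floor on each array, and 7.59 and 7.87 for 12 endothelial markers, with 1 and 3 above the floor. Of 4 red cell markers 0 were above it. The part of other cell types in the results was not tested. The correlation of these 2 arrays over all probes was 0.982, the lowest of the 6 pairs, the highest being 0.989, and their medians were 4.92 for CD133-negative and 4.98 for ALDH-negative cells. Centring the arrays on their medians would add 0.06 to every difference.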

How the data were processed

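RNA of 4 sorted fractions of Huh7 cells was measured on 1 Affymetrix Human Gene 1.0 ST array each. The deposited values are log2 expression values made by the authors with RMA, per the submitters' processing notes; the software and the genome build of the probes are not given in the sources used here. Precision is limited by the number of arrays. RMA normalizes the arrays together, so a shift of all RNA between fractions would not show.

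Of 28869 probes, 19310 have 1 gene symbol, 1752 several and 7807 are not listed in the platform annotation; 19279 of the first matched RefSeq (GRCh38.p14) by gene identifier. Each of 18377 genes is represented by its probe of highest average level, and 685 genes have more than 1 probe. Differences, counts and list medians were computed with Python 3.11.15, pandas 2.3.3, numpy 2.4.6, statsmodels 0.14.6 (loess) and matplotlib 3.10.9. The calling was tested on simulated data with large differences put into genes well above the floor. Differences near the floor or near 2-fold were not simulated. A gene counts as higher or lower at 2-fold where the brighter array is at or above the floor of 4.98. Named are PROM1 and the aldehyde dehydrogenases, the 20 widest differences in each direction with both arrays above the floor, up to 10 in each direction by bound, and from each list up to 6 members that reached 2-fold, otherwise the 3 widest; genes outside this rule are examples chosen after their values were seen. The comparison, the members and the lists were chosen with earlier results of these data known, and 6 lists were added after the values were seen. Alternatives were the fold, the floor, the mean over probes, centring, a second quantile normalization and loess. Promoters are the 250 bases before the start site, from RefSeq.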

Additional observations from a re-analysis of the deposited data

Results flagged for a closer look

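For 16 named genes the 2 comparisons between the sorts pointed in opposite directions, each at 2-fold or more by the measured values. Where the dimmer value is below the floor only a bound holds, and 12 of the 16 reach 2-fold in both comparisons by that bound. The other 4 are COL12A1 (at least 1.77-fold lower and 1.87-fold higher), FBN1 (at least 1.71-fold lower), CUBN (at least 1.69-fold higher) and GSTA2 (at least 1.54-fold higher). With 1 array in each fraction the difference between the comparisons was not tested. In each case the gene was lower in CD133-negative than in ALDH-negative cells, and higher in CD133-positive than in ALDH-positive cells. The log2 differences are given in that order. PROM1, the gene of CD133 itself, had -3.07 and 1.89. The CD133 fractions were sorted on its protein, so its signs are not a result separate from the sort. Among brush border genes they were -3.35 and 1.22 for SLC26A3, -2.97 and 1.26 for SI, -2.69 and 1.02 for CUBN, -2.47 and 1.25 for CDH17, and -2.37 and 1.13 for DPP4. The oxidase NOX1 had -3.32 and 1.20, the glutathione transferase GSTA2 -2.56 and 1.33, and PARM1 -2.07 and 1.04. The annexins ANXA1 and ANXA3 had -2.19 and 1.27, and -1.27 and 1.96, and the tetraspanin TSPAN8 had -1.09 and 1.32. The interleukin IL18 had -1.81 and 1.498, and the glutamate transporter SLC1A1 -1.18 and 1.20. The matrix genes COL12A1 and FBN1 had -1.56 and 1.21, and -1.09 and 1.31. These pairs share no array, but the arrays were normalized together.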

How the results depend on the processing

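No replicate exists in any fraction, so no value here has an error between samples, and leaving out an array removes the comparison. No paired analysis was possible because each group holds 1 array and the labels carry no replicate numbers. At 1.5-fold 1055 genes were higher and 702 lower, and at 4-fold 1 and 33. With a stricter floor, the 75th percentile, 129 genes were at least 2-fold lower, and the medians were -1.43 for brush border genes, -1.23 for mucins and secretory proteins, 0.056 for alcohol dehydrogenases and cytochromes P450 and 0.0067 for ABC transporters, the last 2 with the sign turned. After raising low values to the floor, the medians were 0.00 for mucins and 0.36 for plasma proteins, since members below the floor on both arrays then have no difference. A second quantile normalization gave 0.29 for plasma proteins, 0.32 for mitosis and -0.020 for cytosolic ribosomal proteins, the last with the sign turned. Loess gave 0.32, 0.31 and 0.72 for plasma proteins, mitosis and replication, and turned the sign for the unfolded protein response (-0.043), ribosomal proteins (-0.064) and hepatocyte-defining genes (-0.041). Loess also turned the sign of small medians, to -0.187 for glycolysis, gluconeogenesis and hypoxia, -0.127 for fatty acid synthesis, -0.062 for fatty acid oxidation, -0.075 for NRF2 targets, -0.024 for p53 targets and 0.029 for endothelial markers. The second quantile normalization turned glycolysis (-0.129), fatty acid synthesis (-0.096), fatty acid oxidation (-0.037), NRF2 targets (-0.050), endothelial markers (0.044) and long non-coding RNAs (0.0031). The stricter floor turned ATF4 targets (0.052) and receptor tyrosine kinases (0.010), and centring turned surface markers (0.032), annexins and tetraspanins (0.023), receptor tyrosine kinases (0.014), endothelial markers (0.023) and the epithelial-mesenchymal list (0.0003). The cause was not tested. Requiring both arrays at or above the floor, an alternative chosen after seeing the data, left 134 lower genes. Of the calls at 2-fold 39.5% were on the higher side, 49.2% after centring, 32.5% after the second quantile normalization and 30.0% after loess. Centring moved the median of all genes from 0.01 to 0.07.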

Other observations

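Gene families grouped by the letters that open their symbols, a rule written after the data were seen, gave 139 families with at least 10 genes above the floor. The MCM stem had the highest median difference (0.80, 10 of 11 genes higher in CD133-negative cells). It was followed by the small subunit processome proteins UTP (0.57, 9 of 10 higher), the proteasome regulatory subunits PSMD (0.57, 12 of 12) and the nucleoporins NUP (0.54, 20 of 20). The lowest medians were those of the semaphorins SEMA (-0.31, 10 of 13 lower), the claudins CLDN (-0.29, 11 of 14), the myosins MYO (-0.27, 10 of 13), the serine proteases PRSS (-0.23, 11 of 14) and the tetraspanins TSPAN (-0.23, 12 of 19).

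Of 175 small nucleolar RNA genes, 88 were above the floor, 4 of them at least 2-fold higher in CD133-negative cells and 2 at least 2-fold lower. The 4 higher ones, SNORD44 (1.36), SNORD78 (1.07), SNORD81 (1.02) and SNORD79 (1.02), are known to be processed from introns of 1 host gene, GAS5. Between the positive fractions they differed by 0.85, 0.80, 0.85 and 0.79 in the same direction. The 2 lower ones were SNORA80E (-2.11) and SNORA3A (-1.003), also lower between the positive fractions at -1.22 and -0.84. Of 173 microRNA genes, 30 were above the floor and 0 reached 2-fold. Of 631 long non-coding RNA genes 175 were above the floor. DLEU2 (1.43, a bound of at least 2.41-fold) and LINC00910 (1.14, a bound of at least 1.25-fold, with 0.059 from its other probe) were the 2 higher at 2-fold by the measured values, and UCA1, at 7.47 in CD133-negative and 9.23 in ALDH-negative cells, was the 1 at least 2-fold lower.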
